A study of Homo sapiens with 2 samples.

Results

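The barcodes described here are those with transcripts of fibrillar collagens or small proteoglycans among sorted serotonin neurons (SNs). They were chosen by measured values: at least 5 UMIs summed over COL1A1, COL1A2, COL3A1, DCN and LUM, with at least 2 of these 5 genes detected. A UMI, or unique molecular identifier, marks 1 captured transcript. The rule found 257 members among 13958 barcodes that passed filters of 1000 or more UMIs, 500 or more detected genes and no more than 10% of UMIs on mitochondrial genes. The levels of the 5 genes are therefore a description of the choice and support nothing.

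The study differentiated the human embryonic stem cell line H9 (WA09), which carried an EGFP reporter knocked in at TPH2, towards SNs, and sorted EGFP-positive cells at day 42. The library labelled WT had the reporter alone, and the library labelled FKO had the reporter and a FOXA2 knockout, made by CRISPR repair that left an early stop codon in a line expanded from picked clones before the reporter was added. Each label had 1 library of single cells on the 10x Genomics 3' kit, so no difference between the labels has a replicate check and no test was made. The deposited matrices held 11052 barcodes and 123064653 UMIs in the library labelled WT, and 8806 barcodes and 70588747 UMIs in the library labelled FKO.

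Mesenchymal cells such as fibroblasts secrete type I and type III collagen, which assemble into fibrils outside the cell. Decorin (DCN) and lumican (LUM) are small leucine-rich proteoglycans that bind these fibrils and regulate their width. In the embryo, such cells arise from mesoderm and, in the head, from the neural crest, whereas neurons and the floor plate, the ventral midline of the neural tube that secretes SHH, come from the neural ectoderm.

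FOXA2, the targeted gene on chromosome 20, is a transcription factor of floor plate and endoderm. Members labelled WT held 82 UMIs of it (48.3 CPM, UMIs scaled to a common library total), and members labelled FKO held 134 (54.0 CPM). Its level in the other barcodes was 3.44 CPM for WT and 21.5 CPM for FKO. It was detected in 42.9% of members labelled WT (32.1% to 54.1%) and 16.8% of members labelled FKO (11.5% to 23.2%), with median depths of 18874.5 and 11704 UMIs, and in 3.22% and 7.38% of the others. After each barcode was thinned at random to 2000 UMIs, it was in 8.33% and 4.05% of members. In a set of members with floor plate genes, defined below, it had 60.3 CPM for WT and 239 CPM for FKO, but it is 1 of the 10 genes that define this set. Among the 66 and 18 members that reached the same limit by the other 9 genes, it had 60.3 CPM (47.8 to 75.1) and 246 CPM (202 to 297). Of all FOXA2 UMIs of members labelled FKO, 1 barcode held 20.1%. It had 0 and 2.92 CPM in a set with mesenchymal panel genes, which like those that follow leaves out barcodes of the floor plate set, 6.25 and 87.0 CPM in the members of no set, and 10.2 CPM in a crest gene set found for FKO. The log2 ratio of FKO over WT was 0.16 (exact 95% interval -0.25 to 0.58) in members and 2.65 (2.46 to 2.83) in the other barcodes. The ratio in members lies under the median of 0.49 over all genes given below. Its pooled level was thus not lower in the library labelled FKO, while fewer of the members labelled FKO had a UMI of it. UMIs read near the 3' end of a transcript carry no information on a stop codon further upstream, so these levels do not check the labels, and every direction below rests on the labels. Other floor plate genes were lower in members labelled FKO than in members labelled WT. Their log2 ratios were -5.32 (-6.29 to -4.50) for SHH, -5.68 (-7.32 to -4.43) for CORIN and -3.39 (-3.60 to -3.18) for SPON1, while the list of 10 was higher for FKO in the other barcodes, at 1.57. The mix of members differs too, since 66 of 84 labelled WT and 20 of 173 labelled FKO belong to the floor plate set. Label and mix therefore cannot be told apart in these ratios. All intervals given here cover counting error only.

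The library labelled WT held 84 members of 6385 barcodes (1.32%, Clopper-Pearson 95% interval 1.05% to 1.63%), and the library labelled FKO held 173 of 7573 (2.28%, 1.96% to 2.65%). The order of the shares depended on the filters, since with at most 5% mitochondrial UMIs they were 3.89% for WT (14 of 360) and 1.89% for FKO (60 of 3167). When barcodes were thinned before members were chosen, the shares were 0.126% (8 members) and 1.17% (87 members). Members were deeper than the other barcodes, with medians of 18874.5 against 12605 UMIs in the library labelled WT and 11704 against 7083.5 UMIs in the library labelled FKO. Their median share of mitochondrial UMIs was 6.94% and 5.68%, against 7.86% and 5.30% in the other barcodes. No member barcode was found in both libraries, which shared 21 deposited barcodes and 6 past the filters.

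The members differed in how many collagen and proteoglycan UMIs they held. The summed count of the 5 genes had a median of 17 in the library labelled WT, with the middle of the range from 9 to 29, and a median of 40 in the library labelled FKO, from 10 to 123. At least 100 UMIs were held by 1 member labelled WT and by 56 members labelled FKO. At the limit itself, 4 members labelled WT and 14 labelled FKO had exactly 5 UMIs, and 23 and 40 barcodes just outside had 4. A further 28 and 49 barcodes had at least 5 UMIs but from a single gene. All 5 genes were detected in 2 members labelled WT and in 79 labelled FKO.

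The name mesenchymal collagen-producing cells did not describe all members of the library labelled WT. There, collagen made up 36.3% of the UMIs of the 5 genes, and 40 of the 84 members had DCN or LUM with no UMI of the 3 collagens. Members labelled FKO had 88.7% of these UMIs on collagen, and 3 of the 173 lacked it. COL1A1 had 139 UMIs in members labelled WT, of which 1 barcode held 92.1%, and without that barcode its level was 6.57 CPM against 81.9 CPM with it. Among members labelled FKO, COL1A1 had 4733 UMIs or 1907 CPM, and its richest barcode held 3.74%. The members are therefore called collagen and proteoglycan barcodes below.

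COL1A1 was detected in 8.33% of members labelled WT and 76.9% of members labelled FKO, against 0.143% and 2.66% of the other barcodes. The others are mostly neurons, but the rule that set them apart used COL1A1, so these shares describe the choice. After every barcode was thinned to 2000 UMIs, these shares were 2.38% and 57.8% in members, and 0.032% and 0.755% in the others. Thinning left out 43 shallower other barcodes labelled WT, 116 labelled FKO and no member. DCN was in 75% of members labelled WT and 54.9% of members labelled FKO, against 1.05% and 0.662% of the others, and in 39.3% and 31.2% of members after thinning. Its level in members was 340 and 249 CPM, and that of LUM was 464 and 373 CPM.

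Of the other markers, MGP and OGN were found in few members labelled WT, and PDGFRB and TWIST1 in members of both libraries. MGP, a matrix protein that inhibits calcification, had 3 UMIs in members labelled WT and 1163 in members labelled FKO (469 CPM), where 1 barcode held 22.6% of them. OGN, or osteoglycin, had 32 UMIs in members labelled WT, all in 1 barcode, and 448 in members labelled FKO (181 CPM). PDGFRB, a receptor for platelet-derived growth factor, had 18.3 and 37.9 CPM, against 0.328 and 0.731 CPM in the other barcodes. TWIST1, a transcription factor of mesenchyme, had 30.04 and 62.1 CPM, against 0.703 and 1.21 CPM. PDGFRB and TWIST1 were thus higher in members than in the others in both libraries, while MGP and OGN were spread over 61 and 67 members labelled FKO and over 2 and 1 members labelled WT.

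Compared with the other barcodes of the same library, 1443 of 9471 genes (15.2%) were at least 2-fold higher in members labelled WT and 1392 (14.7%) at least 2-fold lower. This balance turned in other settings, with 530 higher and 1770 lower at no more than 5% mitochondrial UMIs, 647 and 1739 with thinning before members were chosen, and 1081 and 1739 when at least 3 of the 5 genes were required. In members labelled FKO, 1308 of 10619 genes (12.3%) were higher and 510 (4.8%) lower. The number lower for FKO was 1204 without the highest doublet scores, 1177 with thinning before members were chosen and 2480 without the members richest in neuronal genes, which are described below. The median log2 ratio over all genes was -0.13 and -0.10. Relative to these medians the counts were 1650 higher and 1134 lower for WT, and 1421 higher and 324 lower for FKO. These shares are the background for each list of genes, and since the members were chosen by 5 of these genes, no list was tested.

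A panel of 15 mesenchymal genes that the rule did not use gave a second view of identity. At least 3 of them were detected in 41 of 84 members labelled WT (48.8%, 37.7% to 59.96%) and in 162 of 173 labelled FKO (93.6%, 88.9% to 96.8%). The other barcodes reached this number in 9.28% and 8%. After thinning, the share was 4.76% (1.31% to 11.7%) in members labelled WT and 54.9% (47.2% to 62.5%) in members labelled FKO, against 0.032% and 0.728% in the others. The pooled panel stood at 312 CPM in members labelled WT, against 146 CPM in the others, and at 2450 CPM in members labelled FKO, against 214 CPM. In members labelled WT, 8 of the 10 genes compared were at least 2-fold higher than in the others and 1, THY1, was lower (13.5 against 46.4 CPM), and the 3 barcodes of the panel gene set defined below held 125 of the 529 panel UMIs. Among the 10, a single barcode held all 32 UMIs of OGN, 1 all 18 of POSTN and 1 20 of the 23 of BGN. Without the barcode richest in each, these genes stood at 0, 0 and 1.79 CPM. In members labelled FKO, 14 of the 15 genes were at least 2-fold higher, and the most abundant were MGP, POSTN (394 CPM), COL6A1 (274 CPM) and PRRX1 (264 CPM). Only 4 of the 15 genes reached 10 CPM in the others of either library. Most of the genes counted as higher were thus compared only through members, and these counts of genes support nothing.

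To describe how members varied, they were divided by lists of genes, with limits set after the data were seen. The floor plate gene set holds at least 4 of 10 floor plate genes, the crest gene set at least 4 of 11 neural crest and Schwann cell genes and no floor plate set, and the panel gene set at least 5 of the 15 panel genes and neither of the others. These sets are ranges on a scale and not cell types. The floor plate list includes FOXA2 itself, and without it the set held 66 members labelled WT and 18 labelled FKO.

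In the library labelled WT, 66 members (78.6%, 68.3% to 86.8%) fell into the floor plate gene set, 3 into the panel gene set and 15 into none. In the library labelled FKO, 20 members (11.6%, 7.21% to 17.3%) fell into the floor plate gene set, 62 (35.8%, 28.7% to 43.5%) into the crest gene set, 85 (49.1%, 41.5% to 56.8%) into the panel gene set and 6 into none. The crest gene set had no member labelled WT, for which the exact upper limit is 4.30%. Divided by the same sets, 0 of 6301 other barcodes labelled WT and 132 of 7400 labelled FKO (1.78%) fell into the crest gene set, so this set belonged to 1 library also outside the members. The floor plate gene set took 47 (0.746%) and 115 (1.55%) other barcodes, and the panel gene set 3 and 6. With 1 library for each label, a set found in 1 library may be that library and not a type. At the floor plate limit lay 4 members labelled WT, with 1 just below it, and 2 labelled FKO, with 9 just below it. The panel limit had 5 members labelled WT at it and 17 just below it, and 12 and 10 labelled FKO. The crest limit had 4 members labelled FKO at it and 4 just below it, and 8 members labelled FKO met both the floor plate and the crest limit.

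The floor plate gene set of the library labelled WT held the proteoglycans with almost no type I collagen. Its 66 barcodes had 552 UMIs of DCN (416 CPM), 716 of LUM (540 CPM), 237 of COL3A1 (179 CPM), 4 of COL1A1 and 0 of COL1A2. DCN and LUM alone were detected in 40 of them, and DCN and LUM with COL3A1 in 18. Beside the rule genes, the genes with the highest ratio over the other barcodes were TXLNB, TTR, ITIH5, PAPSS2, TRABD2B, SULF1, SERTM1 and CMTM8. Among these SULF1, which removes sulfate groups from heparan sulfate, had 1590 CPM against 12.7 CPM, and TTR, the thyroxine carrier transthyretin, had 812 CPM against 5.62 CPM. The summed floor plate list, which defines the set, stood at 2168 CPM in it against 35.1 CPM in the other barcodes.

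Over all members labelled WT, 8 of 8 floor plate genes that were abundant enough to compare were at least 2-fold higher than in the others. The list summed to 35.1 CPM in the others, so most of the 8 passed the minimum of 10 CPM only through members. This count therefore supports nothing, and the levels are given as a description. SPON1, which encodes an adhesion protein of the floor plate, had 891 CPM against 10.8 CPM. SHH, the ventralizing signal, had 193 CPM against 2.20 CPM, and was detected in 78.6% of members against 1.27% of the others (32.1% and 0.383% after thinning). CORIN, a protease used to sort floor plate cells, had 103 CPM against 1.23 CPM. LMX1A had no UMI in members of either library. In members labelled FKO the floor plate list stood at 277 CPM against 104.5 CPM in the others, and SHH had 4.84 CPM against 2.83 CPM. The 20 barcodes of the floor plate gene set labelled FKO were led by DAPL1, COL3A1, TTR, MFAP4 and DCN, with FOXA2 at 239 CPM, so floor plate genes are not among the leading genes of this set and no type name is given. DAPL1 rested on few barcodes, as 1 held 20 of its 25 UMIs in members labelled FKO. Most of the TTR of the set also came from few barcodes, since TTR was detected in 15% of the 20.

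The panel gene set of the library labelled FKO is described by its levels, which the choice fixes in part, since the collagens chose the members and MGP, OGN and PDGFRA belong to the panel. Its 85 barcodes had 4062 CPM of COL1A1, 4126 CPM of COL1A2 and 1990 CPM of COL3A1, and 72 of them (84.7%) had all 5 rule genes. Among the highest ratios over the other barcodes were those of MGP (1064 CPM), EPYC (182 CPM), OGN (418 CPM), COL1A1, CXCL14 (553 CPM), PDGFRA (91.5 CPM), COL21A1 (227 CPM), COL3A1 and COL8A1 (390 CPM). PDGFRA is a growth factor receptor of fibroblasts and CXCL14 a secreted chemokine.

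The 62 barcodes of the crest gene set held 1293 UMIs of the 3 collagens and 73 of DCN and LUM, and 53 of them had collagen alone. COL1A2 stood at 700 CPM, COL1A1 at 453 CPM and COL3A1 at 319 CPM. Other leading genes were ANGPTL7, COL5A3, NFATC2, CXCL12, HMCN1, CDH19 and CD9. CDH19, a cadherin of Schwann cell precursors that is not on the list, had 177 CPM against 4.31 CPM. The list itself stood at 2089 CPM in this set, which it defines, and its abundant genes over all members labelled FKO included S100B (260 CPM) and ERBB3 (118 CPM). In members labelled WT the list stood at 37.7 CPM, with ERBB3 and SOX10 at 0.

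**Figure D1:**
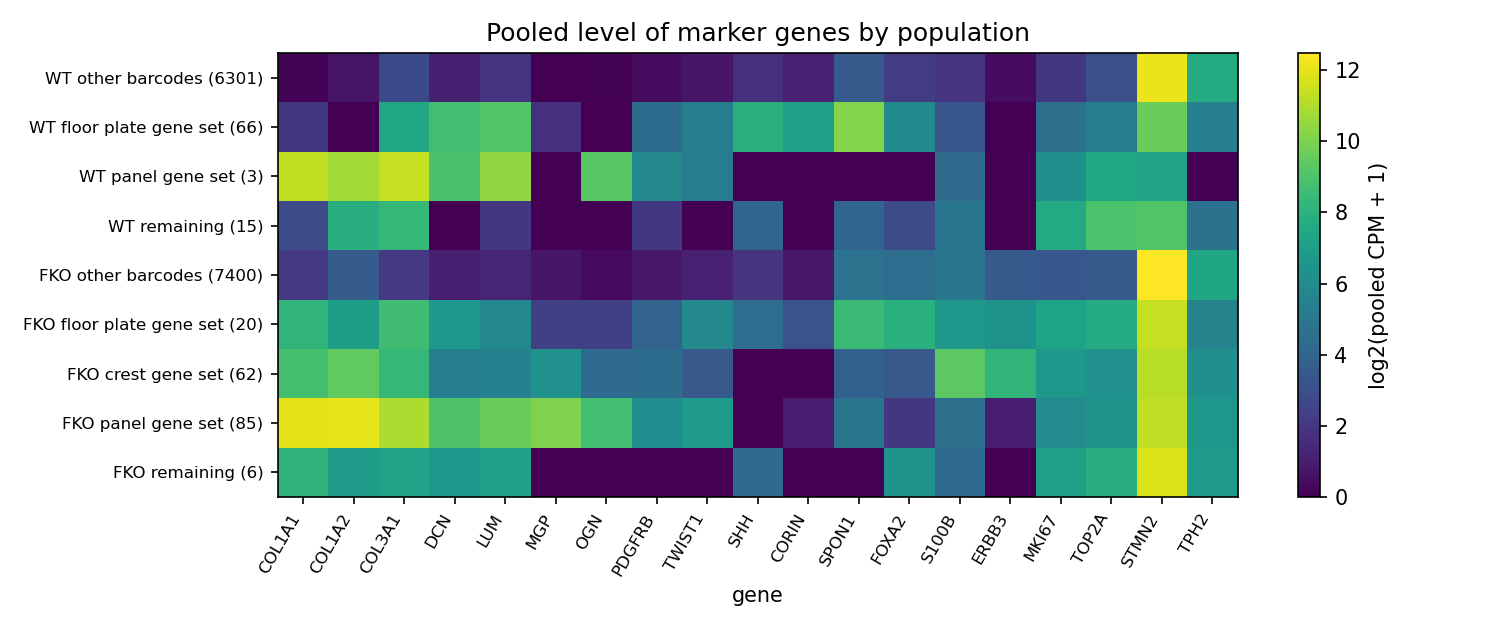
Colour gives log2 of the pooled CPM plus 1 for 19 marker genes (columns) in the other barcodes and in each gene set (rows, with the number of barcodes). The floor plate gene set labelled WT stands above the other barcodes of its library for DCN, LUM, SHH, CORIN and SPON1 and is at 0 for COL1A2, and the panel gene set labelled FKO stands above its other barcodes in each of the first 9 columns, although genes among these columns define the sets or chose the members.

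The 15 members labelled WT in no set had COL1A2 at 228 CPM, COL3A1 at 313 CPM, DCN at 0 and LUM at 1 UMI. Of these, 12 had COL1A2 and COL3A1 alone. Their leading genes beside COL1A2 were APOLD1, IFI44L, CEP55, NDC80, BUB1, TOP2A, CENPA, AURKB and MKI67, of which the last 7 act in cell division and were each detected in 13.3% to 26.7% of the 15. The MHC class I list stood at 3813 CPM in these 15 barcodes, with a median of 1454 CPM over barcodes, against 191 CPM in the other barcodes. In the 3 barcodes of the panel gene set labelled WT, it stood at 11165 CPM, and 1 barcode held 92.1% of these UMIs. Over all members labelled WT, HLA-C had 661 CPM against 65.8 CPM and HLA-B 491 CPM against 51.2 CPM, and the list 1496 CPM against 191 CPM, with 5 of 5 genes at least 2-fold higher. The 66 barcodes of the floor plate gene set stood at 558 CPM for the list, and the median over the 84 members was 525 CPM against 117 CPM over the others. For FKO, HLA-C had 27.8 CPM against 20.4 CPM and HLA-B 22.6 CPM against 14.7 CPM. There the list stood at 409 CPM against 109 CPM with 4 of 6 genes at least 2-fold higher, led by B2M at 226 CPM against 29.4 CPM.

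Among the small leucine-rich proteoglycans, 7 genes could be compared in members labelled FKO and 4 in members labelled WT, but DCN and LUM among them chose the members. Without these, 5 of 5 genes in members labelled FKO were at least 2-fold higher than in the others. The whole list summed to only 8.78 CPM in the others labelled FKO. These 5 genes thus passed the minimum level for a comparison only through members, and their count supports nothing. Without DCN and LUM, only OGN and BGN were left in members labelled WT, and 1 barcode held all 32 UMIs of OGN and 20 of the 23 UMIs of BGN. Several genes of the list lie in a pair of gene clusters. EPYC, KERA, LUM and DCN follow each other on chr12:90963682-91182817 of GRCh38, and OGN, OMD, ASPN and ECM2 on chr9:92383268-92559106. On chromosome 12, DCN and LUM were abundant in members of both libraries, EPYC had 191 UMIs in members labelled FKO and 0 in members labelled WT, and KERA had 9 and 0. On chromosome 9, OGN had 448 UMIs in members labelled FKO, ASPN had 456 in members labelled FKO and 6 in members labelled WT, and OMD had 23 and 5. OMD, which lies between OGN and ASPN, thus had far fewer UMIs than either in members labelled FKO.

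The promoters of OGN, ASPN and EPYC are shown because these proteoglycan genes were high in the panel gene set labelled FKO, a choice made after their values were seen. Among the 9 markers, the promoter reference used (GRCh38.p14) had sequences only for OGN and PDGFRB, and it had them for 7 of the 11 small leucine-rich proteoglycans. Each sequence gives the 150 bases before the first start of the gene on its minus strand, and capitals mark TATAAA or CCAAT on either strand. These lie at chr9:92404700-92404849 for OGN, chr9:92482507-92482656 for ASPN and chr12:91004973-91005122 for EPYC.
OGN: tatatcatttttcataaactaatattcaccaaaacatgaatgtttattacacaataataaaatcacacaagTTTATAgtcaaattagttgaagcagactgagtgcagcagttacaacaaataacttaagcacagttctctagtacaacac
ASPN: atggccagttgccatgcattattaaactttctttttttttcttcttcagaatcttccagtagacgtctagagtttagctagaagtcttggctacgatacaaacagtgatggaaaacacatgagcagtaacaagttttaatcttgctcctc
EPYC: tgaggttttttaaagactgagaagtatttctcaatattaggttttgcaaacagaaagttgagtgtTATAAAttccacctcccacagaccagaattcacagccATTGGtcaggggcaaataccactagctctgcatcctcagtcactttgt
TATAAA was found in OGN at position -79 on the opposite strand and in EPYC at -85, and CCAAT in EPYC at -48 on the opposite strand, counted from the start to the left end of the match. Over 27305 promoters of this length, 7.14% held TATAAA and 24.4% held CCAAT. A match of letters is a description and not a binding site.

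Most of the extracellular matrix genes that could be compared were higher in members, with exceptions mainly in the library labelled WT. Many passed the minimum of 10 CPM only through members, so these counts are tilted towards higher and are a description. In the others of either library, 9 of 22 matrix glycoproteins, 5 of 24 other collagens and 3 of 16 elastic fibre genes reached it. Of the fibrillar collagens that did not choose the members, 4 of 5 genes compared in the library labelled WT and 6 of 6 in the library labelled FKO were at least 2-fold higher. Of 22 matrix glycoproteins, 14 of 16 and 22 of 22 were higher, with medians of 4.24 and 4.37 on the log2 scale, and THBS2 was lower for WT at 3.53 CPM against 11.5 CPM. Some of these values rested on few barcodes, as the 3 barcodes of the panel gene set held 19 of the 24 UMIs of IGFBP3 in members labelled WT. IGFBP5, a binding protein of insulin-like growth factors, was the most abundant, with 1403 CPM in members labelled WT and 1474 CPM in members labelled FKO. Of the other collagens 5 of 8 and 17 of 19 were higher, with 5 of the 24 at 0 in members labelled WT, and COL4A2 of basement membranes stood at 22.4 CPM against 19.5 CPM for WT and 347 against 55.3 CPM for FKO. Of the genes for elastic fibres and microfibrils 6 of 7 and 13 of 13 were higher. Genes that process collagen were higher in 13 of 18 and 23 of 26, and PPIB, a proline isomerase, was their most abundant gene at 897 and 640 CPM, against 427 and 303 CPM in the others.

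By the rule for named genes, those highest in members of both libraries were AHNAK, TNC, ITIH5, SERPINH1, GPX8, SPARC, FN1, FSTL1, CCDC80, ANXA1, S100A11, MDFI, WWTR1, EMP3 and FKBP10. SPARC, which binds collagen as it is secreted, had 667 CPM against 13.7 CPM in the library labelled WT and 630 against 28.5 CPM in the library labelled FKO. SERPINH1, the collagen chaperone HSP47, had 117 against 3.38 CPM and 187 against 7.44 CPM. TNC, or tenascin-C, a matrix protein of developing tissue, had log2 ratios of 5.84 (5.52 to 6.17) and 5.09 (4.84 to 5.34). FKBP10, another chaperone of collagen, had 4.18 (3.83 to 4.52) and 4.06 (3.77 to 4.35). FN1, or fibronectin, had 82.5 CPM in members labelled WT and 646 CPM in members labelled FKO. S100A11 rested on few barcodes in the library labelled WT, where 1 held 49.7% of its UMIs.

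VIM, the intermediate filament of mesenchymal and progenitor cells, was the most abundant gene of the cytoskeletal list, with 7218 CPM in members labelled WT and 4704 CPM in members labelled FKO, against 559 and 794 CPM in the others. LGALS1, or galectin-1, had 127 and 1226 CPM, and 78.8 CPM for WT without the barcode with most of it. Of the mesenchymal transcription factors compared, 3 of 7 were higher and 2 lower in the library labelled WT, and 12 of 15 were higher in the library labelled FKO. Only 5 of the 22 on the list reached 10 CPM in the others of either library. Most of the 15 were thus compared only through members, and their count supports nothing. The summed list of these factors stood at 1050 CPM against 1059 CPM for WT and 1720 against 1437 CPM for FKO. PRRX1 had 10 UMIs in members labelled WT, 8 of them in 1 barcode, and 656 in members labelled FKO. Neural progenitor genes were higher in 7 of 10 in the library labelled WT and 3 of 8 in the library labelled FKO, with NES at 347 and 162 CPM. Of the 12 genes on this list, 6 reached 10 CPM in the others of either library, so these counts are also tilted towards higher.

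Among signalling genes, SFRP2, a secreted Wnt antagonist, was the most abundant ligand in members labelled FKO with 220 CPM, and SFRP1 in members labelled WT with 78.9 CPM. Of the ligands compared, 9 of 13 and 20 of 25 were at least 2-fold higher than in the others, and of the receptors 11 of 16 and 16 of 22. Only 8 of 35 ligands and 10 of 27 receptors reached 10 CPM in the others of either library. Many were thus compared only through members, so these counts are tilted towards higher and are a description. ITGB1, an integrin subunit that binds matrix, was the most abundant receptor at 385 and 737 CPM. The chondrogenic and osteogenic list was higher in 5 of 6 and 9 of 10 genes compared. Only 1 of its 16 genes reached 10 CPM in the others of either library, so these counts support nothing. SOX6 stood at 67.1 CPM in members labelled WT. COL2A1, the cartilage collagen, stood at 147 CPM in members labelled FKO. There 1 barcode held 43.3% of its UMIs, and the level without it was 83.8 CPM. The pericyte and smooth muscle list was led by TAGLN at 31.8 and 98.3 CPM, and without the barcode with most TAGLN its level for WT was 10.2 CPM.

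Markers of several other types were low in members, though some stood above the other barcodes. The endothelial list stood at 11.8 and 33.9 CPM against 6.53 and 9.52 CPM in the others, with 9 and 5 of its 11 genes at 0 in members and EGFL7 the most abundant. The immune list stood at 1.18 and 5.64 CPM against 0.211 and 0.327 CPM, from 2 UMIs in all for WT and 14 for FKO, 12 of these of AIF1. The muscle list stood at 7.66 and 24.6 CPM against 10.6 and 26.1 CPM, and the pluripotent list at 24.7 and 21.0 CPM against 8.52 and 10.1 CPM. Of 39 HOX genes, 38 had no UMI in members labelled WT and 34 none in members labelled FKO. The HOX list stood at 4.71 and 3.22 CPM in members against 5.75 and 0.716 CPM in the others, so it was low outside the members too. The choroid plexus list reached 635 CPM in members labelled WT through TTR (635 CPM), with 6 of its 8 genes at 0, and 58.4 CPM in members labelled FKO, against 6.62 and 6.30 CPM in the others. In members labelled FKO 1 barcode held 46.2% of these UMIs, and without it the list stood at 31.5 CPM. The endoderm and liver list was also led by TTR, with 8 of its 11 genes at 0 in members of each library, and stood at 651 and 36.7 CPM against 7.50 and 2.58 CPM. For FKO 1 barcode held 72.5% of its UMIs, and without it the list stood at 10.1 CPM. The epithelial list stood at 32.4 and 25.4 CPM, under the 53.3 and 35.1 CPM of the others. The astrocyte and oligodendrocyte list stood at 193 CPM in members labelled WT, led by SLC1A3 at 87.8 CPM, and at 540 CPM in members labelled FKO, led by S100B, against 58.1 and 185 CPM in the others. The part of these other types in the values was not tested.

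Neuronal genes were lower in members but not absent. The neuronal panel summed to 2818 CPM in members labelled WT against 13469 CPM in the others, with 15 of 15 genes at least 2-fold lower. For FKO it summed to 9118 against 19099 CPM, with 10 of 15 lower. STMN2, a tubulin-binding protein of growing neurites, had 744 and 2503 CPM in members. At least 8 of the 15 genes were detected in 53 of 84 members labelled WT (63.1%, 51.9% to 73.4%) and in 85 of 173 labelled FKO (49.1%, 41.5% to 56.8%), against 98.3% and 97.1% of the others. After thinning, these shares were 2.38% (0.290% to 8.34%) and 33.5% (26.5% to 41.1%), against 66.5% and 92.6%.

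**Figure D2:**
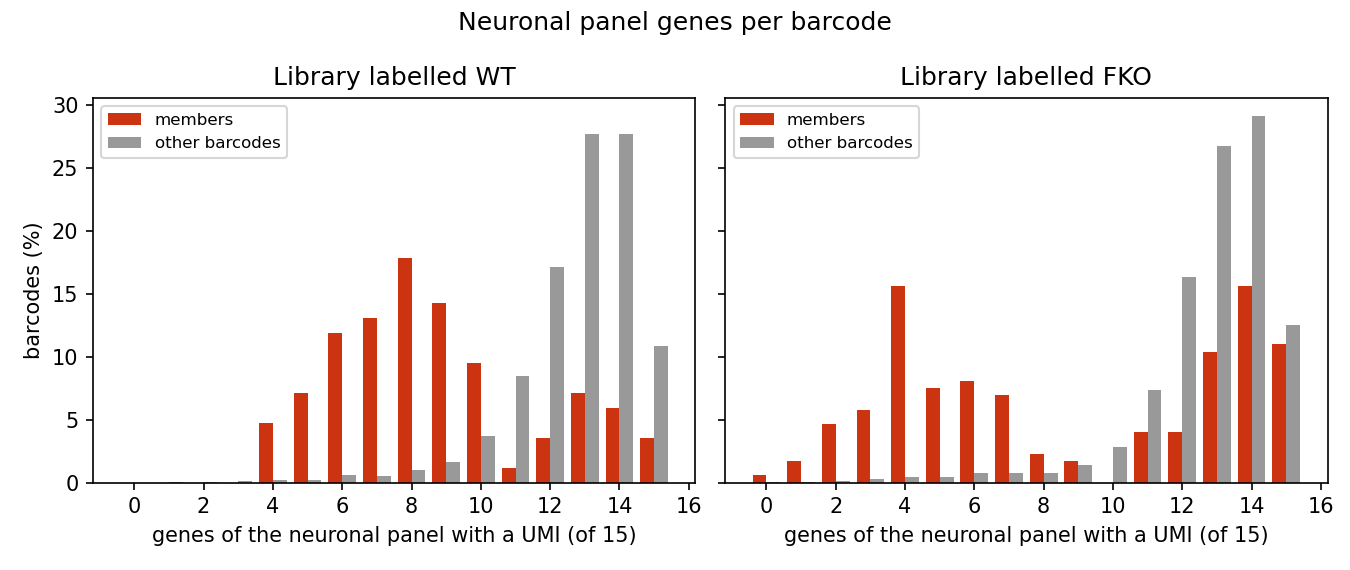
Bars give the percentage of barcodes (y axis) by the number of the 15 neuronal panel genes detected (x axis), for members and other barcodes of each library. Other barcodes peak at 13 and 14 genes, and members labelled FKO have 1 group at low numbers and another at 13 to 15.

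Members labelled FKO fell into groups with few and with many neuronal genes. At least 12 of the 15 were detected in 71 members, with a median of 18652 UMIs, and fewer than 8 in 88 members, with a median of 7206.5 UMIs. Among those 71, 32 had a Scrublet score among the highest of the library, by which doublets (droplets with more than 1 cell) were marked, and among the 88 none had. In the library labelled WT 17 members had at least 12 neuronal genes, and 7 of them were marked. Marked barcodes made up 19.1% of members labelled FKO against 7.58% of the others, and 9.52% of members labelled WT against 10.0%. The part of doublets in the neuronal transcripts of members was not tested. Without the 71 members, 2070 genes were at least 2-fold higher and 2480 lower in members labelled FKO, an alternative added after the data were seen.

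The summed level of serotonergic genes was also lower in members. Their list summed to 601 CPM in members labelled WT against 3077 CPM in the others, with 10 of 11 genes at least 2-fold lower, and to 1405 against 2626 CPM in the library labelled FKO, with 4 of 11 lower. TPH2, the enzyme whose reporter the sort used, was detected in 25 of 84 members labelled WT (29.8%, 20.3% to 40.7%) and 53 of 173 labelled FKO (30.6%, 23.9% to 38.1%), against 73.1% and 54.7% of the others. After thinning, the shares were 3.57% and 7.51%, against 28.3% and 24.8%. FEV, a transcription factor of serotonin neurons, had 298 and 475 CPM in members, against 1622 and 925 CPM.

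The 10 named genes lowest in members of both libraries were PHYHIPL, CXADR, PCSK1, CNTNAP2, CHGB, GRIA4, EN1, ASPHD1, ONECUT2 and RAB33A. CHGB, a secretory granule protein, had 167 CPM against 1065 CPM in the library labelled WT and 893 against 2271 CPM in the library labelled FKO. GRIA4, a glutamate receptor subunit, had log2 ratios of -2.93 (-3.36 to -2.54) and -1.29 (-1.46 to -1.13). EN1, a transcription factor of the midbrain and hindbrain border, had -1.39 (-1.83 to -0.97) and -1.28 (-1.51 to -1.06). All 10 had a lower ratio in the library labelled WT than in the library labelled FKO, and whether this differs by label was not tested.

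Cycling genes were higher in members. At least 3 of 10 cycling genes were detected in 15 of 84 members labelled WT (17.9%, 10.4% to 27.7%) and 20 of 173 labelled FKO (11.6%, 7.21% to 17.3%), against 0.794% and 1.30% of the others. After thinning, the shares were 5.95% (1.96% to 13.3%) and 6.36% (3.22% to 11.1%), against 0.495% and 0.632%. The cycling share of these members was thus above that of the others at equal depth, and the intervals of the 2 labels overlapped. When members were instead chosen from thinned counts, 0 of 8 labelled WT and 8.05% of 87 labelled FKO reached the limit with all their UMIs counted, and 8 members are too few to read a share. The list summed to 730 CPM against 55.4 CPM and 605 against 69.7 CPM. In each library 9 of 9 genes compared were at least 2-fold higher, led by CENPF at 191 and 170 CPM. Only 3 genes of the list reached 10 CPM in the others of either library. Most of the 9 were thus compared only through members, and their count supports nothing. The UMIs of the list came from few barcodes, since 38 members labelled WT and 60 labelled FKO held any, and 1 barcode held 32.0% and 20.04% of them.

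**Figure D3:**
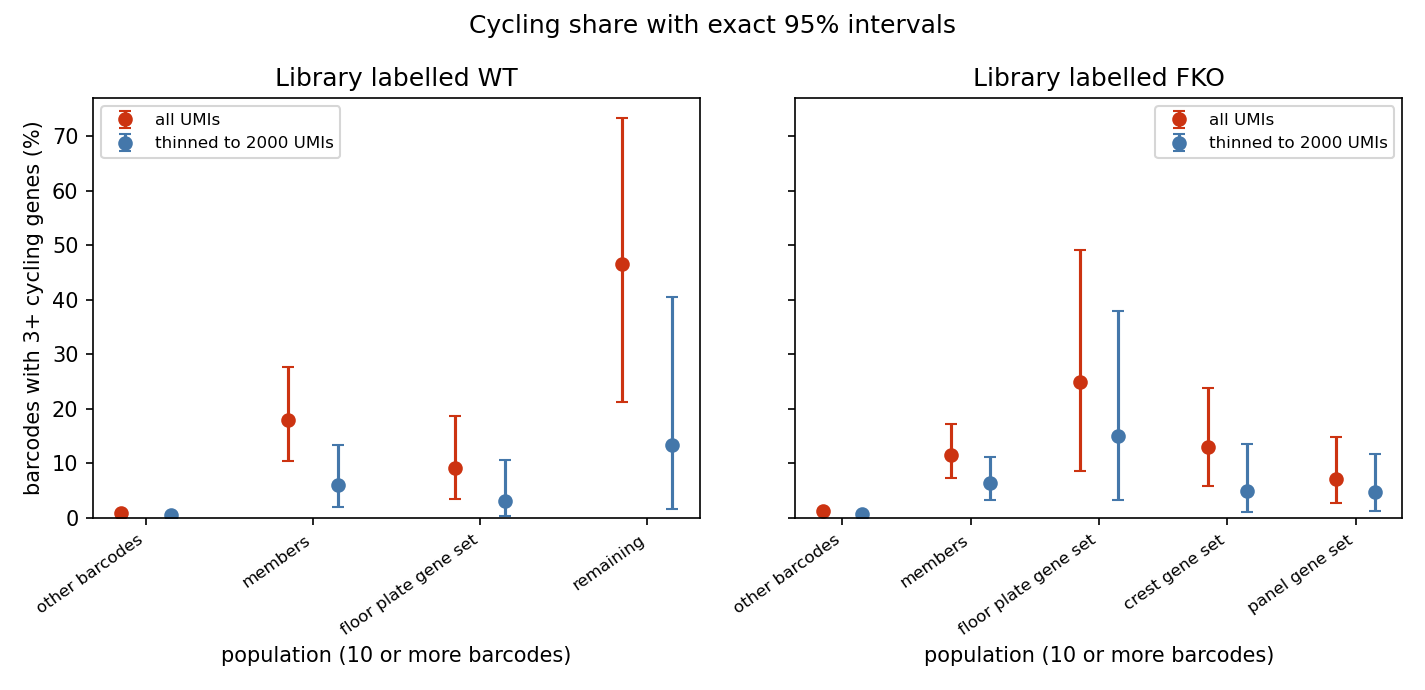
Points give the percentage of barcodes with at least 3 of 10 cycling genes in each population of 10 or more barcodes, with exact 95% intervals, from all UMIs and after thinning to 2000 UMIs. Members stand above the other barcodes in both libraries, and the 15 members labelled WT in no gene set are at 46.7% from all UMIs and 13.3% after thinning, where the floor plate gene set labelled FKO is at 15%.

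Within the members, 7 of the 15 labelled WT in no gene set reached the cycling limit (46.7%, 21.3% to 73.4%), as did 6 of the 66 in the floor plate gene set (9.09%, 3.41% to 18.7%). In the library labelled FKO it was reached by 5 of 20 in the floor plate gene set (25%, 8.66% to 49.1%), 8 of 62 in the crest gene set (12.9%, 5.74% to 23.9%) and 6 of 85 in the panel gene set (7.06%, 2.63% to 14.7%). After thinning, the shares for WT were 13.3% (2 of 15, 1.66% to 40.5%) in no gene set and 3.03% (2 of 66) in the floor plate gene set. For FKO they were 15% (3 of 20), 4.84% (3 of 62) and 4.71% (4 of 85), so no order of the sets can be read. Among the 15, 1 barcode held 48.7% of the UMIs of the cycling list. The S phase list of Seurat, with 43 genes found, took 1047 CPM in members labelled WT against 739 CPM in the others, and 1008 against 830 CPM in the library labelled FKO. Its G2/M list, with 54 genes, took 3322 against 2733 CPM and 3154 against 2824 CPM.

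Between the labels, 3140 of 10574 genes (29.7%) were at least 2-fold higher in members labelled FKO than in members labelled WT, and 619 (5.85%) at least 2-fold lower. The median log2 ratio over all genes was 0.49 in members and 0.48 in the other barcodes. Relative to the median, 1718 genes were higher and 1508 lower in members. The mix of members differs as well, since 66 of 84 members labelled WT and 20 of 173 labelled FKO belong to the floor plate gene set. Within that set, 2284 of 8447 genes (27%) were at least 2-fold higher for FKO and 570 (6.75%) lower, with a median of 0.35. The members of the set differ too, since 11 of the 20 labelled FKO and 13 of the 66 labelled WT had at least 12 of the 15 neuronal genes. The label and the mix of members therefore cannot be told apart in either comparison.

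By the rule for named genes, the highest in members labelled FKO over members labelled WT included MGP, PENK, FRMD6 and CXCL14. MGP had a log2 ratio of 8.05 (6.50 to 10.33). PENK, the precursor of enkephalins, had 872 UMIs in members labelled FKO, 38.8% of them in 1 barcode, and none in members labelled WT, which bounds its log2 ratio at 7.64 or more with a floor of 3 counts. CXCL14 had 649 UMIs and none, for a bound of 7.21. FRMD6 had 1 UMI in members labelled WT, so the interval of its ratio of 7.36 (4.87 to 12.67) is wide. The lowest were CMTM8, CORIN, SHH, TFF3 and EGLN3. CMTM8 had 1068 CPM in members labelled WT and 9.27 CPM in members labelled FKO, with a log2 ratio of -6.85 (-7.51 to -6.26). TFF3, a secreted trefoil peptide, had 1173 and 37.1 CPM, and EGLN3, an oxygen-sensing prolyl hydroxylase, 176 and 6.45 CPM.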

How the data were processed

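Single cells of 2 sorted samples were measured, 1 library for each label. The files deposited by the authors hold unnormalised UMI counts for each gene in each barcode. The matrix headers name Cell Ranger 7.1.0, and the submitters' processing notes name Cell Ranger 7.0 and GRCh38. Barcodes were filtered on UMIs, genes and mitochondrial share as stated, and members were found by their summed UMIs. UMIs were pooled and scaled to CPM, and ratios were taken without a pseudocount for genes with at least 10 CPM in either set and 10 UMIs in the higher one. Where a gene had no count on 1 side, its ratio was taken against 3 counts as a bound. Intervals were exact: Clopper-Pearson for shares, conditional binomial for ratios. No test was made. Scrublet (scanpy 1.11.5) marked no doublets by its own threshold, so the highest scores, 977 and 620 barcodes at 0.8% per 1000, were marked, and they were left out only in an alternative. The phase lists came from Seurat 5.3.0 in R 4.3.3, and other steps used Python 3.11.15, numpy 2.4.6, scipy 1.17.1 and pandas 2.3.3. The procedures were tested on simulated data.

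The members and lists were chosen with earlier results of these data known. Named genes were the 15 highest and 10 lowest in members over the others, with at least 50 CPM in members or others of both libraries and, for the highest, a UMI in at least 10% of members, ranked by the weaker library without the rule genes. To these were added the 5 highest and 5 lowest of FKO over WT, the most abundant genes of each list, the 9 markers and FOXA2. Leading genes of the sets, MHC genes, CDH19, BGN, THBS2, IGFBP3, THY1 and neighbours of the proteoglycans were named after their values were seen. Some genes that these rules take are not reported here.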

Additional observations from a re-analysis of the deposited data

Results flagged for a closer look

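The following pairs of values moved in opposite directions, with both intervals beyond 0 and beyond the median of all genes. None of these differences was tested, and a single library stands behind each value. The meningeal and perivascular fibroblast list had a log2 ratio of members over the others of -0.61 for WT and 2.04 for FKO, and its ratio of FKO over WT was 0.83 in members and -1.82 in the other barcodes. CRABP2 and ITIH5 were its most abundant genes in members labelled WT, each with 88 UMIs (51.8 CPM), against 190 and 0.469 CPM in the others. In members labelled FKO ITIH5 had 63.3 CPM and CRABP2 51.2 CPM. The floor plate list had a ratio of FKO over WT of -2.63 in members and 1.57 in the other barcodes. Of the members, 66 of 84 labelled WT and 20 of 173 labelled FKO belong to the floor plate gene set. The serotonergic list had 1.22 in members and -0.23 in the other barcodes. Its median over members was 292 CPM for WT and 299 CPM for FKO, so the pooled difference does not appear in the medians. The part of single members in it was not tested. The neuronal panel is given beside these pairs but moved the same way in both, at 1.69 in members and 0.50 in the other barcodes. Its median over members was 1524 CPM for WT and 1762 CPM for FKO. At least 12 of its 15 genes were held by 17 of 84 members labelled WT and 71 of 173 labelled FKO, and 32 of these 71 had the highest Scrublet scores. The part of these members in the value was not tested.

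Barcodes above the limit of 10% mitochondrial UMIs were outside the comparisons of the report and entered only an alternative with at most 20%. The rule for members was met by 21 of 4225 labelled WT (0.497%) and 19 of 1015 labelled FKO (1.87%). Past the filters these shares were 1.32% and 2.28%. Of the 21 and 19 barcodes, 17 labelled WT belonged to the floor plate gene set and 13 labelled FKO to the crest gene set.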

How the results depend on the processing

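Of 134 values under alternatives, 88 stayed within the interval or, for counts of genes, within 1.5 times the first count in either direction, and 46 moved. The cause was not tested. The order of the labels turned for the share of members with at most 5% mitochondrial UMIs, for the neuronal share with 3 genes, 5% mitochondrial UMIs and both ways of thinning, and for the cycling share with 3 genes and both ways of thinning. With at most 20% mitochondrial UMIs, 104 of 9203 barcodes labelled WT (1.13%) and 188 of 8325 labelled FKO (2.26%) were members, and none of the values recomputed there moved. The share of members was 2.87% (FKO) with a minimum of 3 UMIs, 0.971% (WT) and 1.74% (FKO) with 10, 0.376% and 1.49% with at least 3 of the 5 genes, 3.89% and 1.89% with at most 5% mitochondrial UMIs (14 of 360 and 60 of 3167 barcodes), and 0.126% and 1.17% with thinning before the rule, which left 8 and 87 members, whose other values below use all their UMIs. Without members with at least 12 neuronal genes it was 1.05% and 1.35%. The identity share of FKO was 97.0%, 99.1% and 97.7% with 10 UMIs, 3 genes and thinning before the rule, and that of WT 35.7% at 5% mitochondrial UMIs. Thinning afterwards gave 4.76% and 54.9%. The neuronal share of WT was 45.8% with 3 genes, 42.9% at 5% mitochondrial UMIs, 12.5% with thinning before and 2.38% after. That of FKO was 52.2% with 3 genes, 42.5% with thinning before, 76.7% at 5%, 37.1% without the highest Scrublet scores, 33.5% thinned after and 13.7% without neuron-rich members. The cycling share of WT was 8.33% with 3 genes, 0% with thinning before and 5.95% after, and that of FKO 9.73%, 8.05% and 6.36%.

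Genes at least 2-fold higher in members labelled WT numbered 530 at 5% mitochondrial UMIs, 647 with thinning before and 425 with 50 CPM, where 522 were lower. More genes were lower than higher for WT in these settings (1770 at 5%, 1739 with thinning before), and also with 3 genes (1081 higher, 1739 lower), without the highest Scrublet scores (1520, 1589) and without neuron-rich members (1560, 1762). For FKO, 335 were lower with 3 UMIs, 238 at 5%, 1204 without the highest Scrublet scores, 1177 with thinning before, 324 relative to the median and 221 with 50 CPM, where 398 were higher. Without neuron-rich members 2070 were higher and 2480 lower. Between labels within members, 1718 and 1508 genes were higher and lower relative to the median, and 960 and 223 with 50 CPM. Leaving out the richest member of each library moved none of these values. Leaving FOXA2 out of the floor plate list kept the set sizes within their intervals. The panel limit was met by 10.7% (WT) and 80.3% (FKO) of members, counted in any set. A limit 1 gene lower or higher moved this share to 31.0% or 4.76% (WT) and 86.1% or 73.4% (FKO). These added alternatives were chosen after seeing the data. Small sets limit precision, and free RNA was not modelled. No paired analysis was possible because each label has 1 library.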
